A study of Xenopus tropicalis with 39 samples.

Results

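The subject is a group of 30 Xenopus tropicalis gene models, of 26550 gene models in the tables, whose RNA was higher in animal caps given much vegt RNA and lower when otx1 RNA was added to vegt RNA. They were chosen by ratios of TPM + 0.5, each taken within a replicate; TPM is a transcript level per unit of length, scaled to the same total in every library. A model was Vegt-induced when its mean at 500 ng of vegt RNA was at least 3 TPM and its ratio to uninjected caps was at least 3 in both replicates, which held for 217 models. Of these, 30 had a ratio of at most 0.67 in both replicates between caps with 100 ng of vegt RNA plus 100 ng of otx1 RNA and caps with 100 ng of vegt RNA alone. Another 73 of the 217 (33.6%) had a ratio of at least 1.5 in both replicates, and 114 met neither limit. No gene symbol stands beside the identifiers in the files, and none (0) of the 30 was found in the RefSeq table of assembly UCB_Xtro_10.0, so members are given by identifier, with no gene name, function or sequence. For the same reason the labelled tissues were not checked against marker genes.

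Vegt is a maternal T-box transcription factor whose messenger RNA is stored in the vegetal part of the frog egg, and it is known for activating genes of endoderm and mesoderm, among them genes of secreted Nodal-type signals. Otx1 is a homeodomain transcription factor of the Otx family, best known for its part in the head and brain. The animal cap is prospective ectoderm, which in Xenopus embryos takes on other fates when given such factors, and the vegetal mass is prospective endoderm, where Vegt acts in the normal embryo. A morpholino (MO) is a synthetic antisense molecule that keeps its target messenger RNA from being spliced or translated.

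Embryos came from in vitro fertilisation, and those injected received RNA or morpholino at the 1-cell stage. Caps came from uninjected embryos, from embryos with 50, 100, 200 or 500 ng of vegt RNA and from embryos with 100 ng of vegt RNA plus 25, 50 or 100 ng of otx1 RNA (n = 2 each). The unit is as the labels give it and is high for a single embryo. Masses came from uninjected, Vegt MO, Otx1 MO and Double MO embryos, the last with both morpholinos (n = 2 each); caps and masses were cut at stage 9 and harvested at stage 10.5, 7 hours after fertilisation. Animal and vegetal blastomeres and whole embryos were taken at the 8-cell stage (n = 3 each). No group had otx1 RNA alone, controls were uninjected, and the number of explants in a library is not given in the sources used here. In such bulk samples fewer cells that express a gene and less RNA per cell cannot be told apart.

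Estimated counts per library were between 8289954 and 18201303 over the 3 experiments, the lowest being replicate 1 of the caps with 100 ng of both RNAs, which the rule used. Libraries with the same replicate number deviated together from their group means, so ratios are given within replicates and tests both without and with the replicate number as a block. Uninjected replicate 2 had higher TPM than replicate 1 in 22 of 30 members in caps and in 21 of 30 in masses. The median log2 ratio of replicate 2 to replicate 1 was 0.59 for the members in caps and 0.97 in masses, against -0.26 and -0.21 for features with a mean of at least 1 TPM.

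The values that chose the members come first, as a description with no test. Among gene models with at least 3 TPM at 500 ng, 1.97% met the limit for Vegt induction. The members' ratio of 500 ng to uninjected caps, as the geometric mean of both replicates, ran from 3.30 to 68.3 with a median of 7.70. Their mean levels covered a wide range, from 4.24 to 311 TPM at 500 ng and from 0 to 61.4 TPM in uninjected caps. All 30 had their highest mean at 500 ng, and in 28 the mean increased at each step from 0 to 50, 100, 200 and 500 ng. The rule set the order of the 0 and 500 ng ends, and these counts were not made for the other Vegt-induced models. The median ratio to uninjected caps was 2.18 at 50 ng, 3.36 at 100 ng and 7.70 at 500 ng.

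The same lowering by 100 ng of otx1 RNA was met by 13.8% of the Vegt-induced models. It was met by 1.51% of the gene models that were not Vegt-induced and had at least 3 TPM with 100 ng of vegt RNA. A ratio of at least 1.5 in both replicates was found in 33.6% and 0.885% of these sets, in the same order. Vegt-induced models thus met the limits more often in both directions, and more of them were raised than lowered. No floor with 100 ng of vegt RNA was set for the Vegt-induced models, so the sets were not matched in level. The members' geometric mean ratio of caps with to caps without otx1 RNA ran from 0.12 to 0.65 with a median of 0.41. In both replicates 14 members were at or below 0.5 and 4 at or below 0.25. With 100 ng of otx1 RNA the members' median ratio to uninjected caps was 1.37, against 3.36 without otx1 RNA. That ratio was over 1 in both replicates in 16 of 30 members and under 1 in both in 1. It was within 1.5-fold of 1 in both replicates in 7 members and at least 1.5 in both in 7, and its geometric mean over replicates ranged from 0.69 to 12.3. Summed over the members, replicate 1 held 313 TPM in uninjected caps, 1177 TPM with 100 ng of vegt RNA and 458 TPM with 100 ng of otx1 RNA added. Replicate 2 held 378, 1358 and 551 TPM in the same order.

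**Figure D1:**
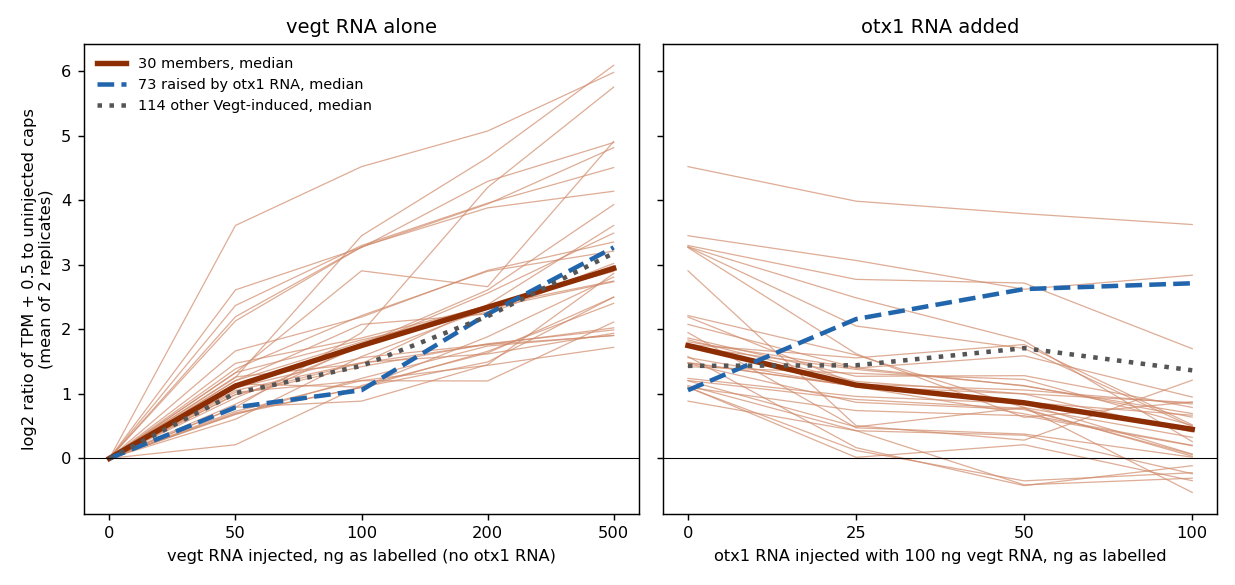
Log2 ratio of TPM + 0.5 to uninjected caps (mean of 2 replicates) against the labelled amount of vegt RNA alone (left) and of otx1 RNA with 100 ng of vegt RNA (right); the amounts are evenly spaced and not to scale. Thin lines are the 30 members, the solid thick line their median, the dashed line the median of the 73 Vegt-induced models raised by otx1 RNA and the dotted line that of the other 114. The values at 0 and 500 ng of vegt RNA and at 0 and 100 ng of otx1 RNA chose the groups, so their order there is fixed by the rule.

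The most abundant member at 100 ng of vegt RNA was Xetrov90018906m.g, with 169 TPM in replicate 1 and 156 TPM in replicate 2. It had 40.4 and 35.8 TPM in uninjected caps, 251 and 372 TPM at 500 ng of vegt RNA, and 62.4 and 61.4 TPM with 100 ng of otx1 RNA. Its replicates lay close together in these groups except at 500 ng, and with otx1 RNA it was above the uninjected caps in both. Xetrov90011283m.g came next, at 126 and 159 TPM with 100 ng of vegt RNA. It had 55.0 and 71.3 TPM once 100 ng of otx1 RNA was added, next to 56.4 and 66.3 TPM in uninjected caps. In this member both replicates with otx1 RNA were thus within a few TPM of the uninjected caps, although vegt RNA was present.

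The lowest otx1 ratio belonged to Xetrov90024227m.g, at a geometric mean of 0.12. It had 4.51 and 32.2 TPM in uninjected caps, 85.1 and 180 TPM with 100 ng of vegt RNA, and 7.43 and 29.1 TPM with 100 ng of otx1 RNA. Its replicates differed in level in all of these groups, and the otx1 caps stood at 1.58 and 0.91 of the uninjected caps of the same number, on TPM + 0.5. Xetrov90006715m.g, at a ratio of 0.15, had 25.5 and 48.7 TPM with 100 ng of vegt RNA and 3.17 and 6.83 TPM with otx1 RNA added. Nearest to the limit among the members was Xetrov90025807m.g, with ratios of 0.669 and 0.639. The nearest Vegt-induced model outside was Xetrov90027056m.g, with 0.302 and 0.674, so the replicates of a model just outside could differ more than the models on either side of the limit.

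In the median over members, smaller amounts of otx1 RNA gave intermediate ratios, which did not hold for every member. Compared with 100 ng of vegt RNA alone, a group the rule used, the median member ratio was 0.66 at 25 ng, 0.58 at 50 ng and 0.41 at 100 ng of otx1 RNA. The rule divided by these same vegt caps, so members were partly chosen for high values there. Ratios below 1 at 25 and 50 ng are thus partly built in. Low values at 100 ng of otx1 RNA were also chosen, so an intermediate place for smaller amounts is partly built in. The counts that follow are a description with no test. At 25 ng 26 of 30 members were lower in both replicates, and at 50 ng 29 of 30. The share of all gene models that were lower in this way was not computed. At or below a ratio of 0.67 in both replicates were 9 members at 25 ng and 12 at 50 ng, against 1.11% and 1.22% of gene models with at least 3 TPM in the vegt caps. The mean fell short of the previous one at each of the 3 steps in 18 members. Replicates differed here, with 11 such members in replicate 1 and 18 in replicate 2. The rule set the order of the 0 and 100 ng ends, so only the place of 25 and 50 ng was free. These counts were not made for the other Vegt-induced models. In Xetrov90000697m.g most of the difference was already present at 25 ng, with 9.68 and 23.8 TPM without otx1 RNA, 2.26 and 8.66 TPM at 25 ng and 1.09 and 3.55 TPM at 50 ng. In Xetrov90008950m.g it was seen mainly at 100 ng, with 132 and 143 TPM at 0 ng, 106 and 154 TPM at 25 ng, 122 and 117 TPM at 50 ng and 78.6 and 67.2 TPM at 100 ng.

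The gene model Xetrov90002928m.g is not a member but counts among the 114 other Vegt-induced models. It follows the injected amount of vegt RNA in these caps, and was picked for that after its values were seen. It stood at 1920 and 2090 TPM with 100 ng of vegt RNA alone and at 2000 and 2472 TPM with 100 ng of otx1 RNA added, ratios of 1.04 and 1.18. With 25 ng of otx1 RNA it had 1217 and 2358 TPM and with 50 ng 1647 and 2723 TPM. Replicate 1 was thus lower, and replicate 2 higher, than with vegt RNA alone at both of these amounts.

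A further comparison for otx1 RNA set groups against each other that the rule did not use. It took caps with 25 and 50 ng of otx1 RNA against caps with 50 and 200 ng of vegt RNA alone. The latter were averaged on the log scale, where 100 ng is the midpoint. This difference equals an effect of otx1 RNA only for genes that respond evenly on the log scale between 50 and 200 ng. The spread behind the SE and p-values was estimated from all 16 cap libraries, including those that chose the members. These SE and p-values are therefore not independent of the rule, while the within-replicate ratios use none of its libraries. Of the 30 members 29 had a negative log2 fold change, with a median of -0.58 against 0.00 for all 16360 features tested. By edgeR's quasi-likelihood test none (0) passed an adjusted p of 0.05 without the block, where 0% of features were called in either direction, and 9 members were lower and 0 higher at an unadjusted p under 0.05, against 0.85% and 0.899% of features. With the block 2 members were called lower and 0 higher, against 0.0795% of features called lower and 0.134% higher. DESeq2 without the block called 1 member lower and 0 higher, against 0.0244% and 0.0978% of features. Of 29 members with a mean of at least 1 TPM in the libraries compared, 7 were at least 1.5-fold lower within both replicates and 0 at least 1.5-fold higher, against 1.1% and 0.991% of features with that mean. Of these 7, 3 had a mean under 1 TPM in the otx1 caps and reached that mean through the caps with vegt RNA alone. Lower by this rule were 24.1% of members, 9.9% of the other Vegt-induced models and 1.47% of the raised ones. Higher were 3.96% of the other Vegt-induced models and 29.4% of the raised ones. The difference between these classes was not tested.

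Both replicates went the same way for the members, with unequal size: the median within-replicate log2 ratio was -0.94 in replicate 1, with 30 of 30 negative, and -0.22 in replicate 2, with 24 of 30 negative. The feature that follows vegt RNA, Xetrov90002928m.g, moved with this difference, by -0.58 in replicate 1 and 0.67 in replicate 2; its part in the result was not tested. The 114 other Vegt-induced models had medians of -0.31 and 0.31, so that the members' median lay 0.63 below theirs in replicate 1 and 0.53 below in replicate 2. The 73 raised models had medians of 0.36 and 1.26. The 2 members called with the block were Xetrov90000697m.g (log2 fold change -2.42, SE 0.18, edgeR adjusted p = 5.98e-05; 1.00 without the block) and Xetrov90020286m.g (-1.18, SE 0.19, adjusted p = 0.0493; 0.447 without). Xetrov90020286m.g had 38.6 and 39.9 TPM at 25 ng of otx1 RNA and 32.0 and 42.3 TPM at 50 ng. All 4 libraries were lower than those with vegt RNA alone, at 75.4 and 42.03 TPM for 50 ng and 161 and 112 TPM for 200 ng, except that replicate 2 at 50 ng of otx1 RNA lay level with replicate 2 at 50 ng of vegt RNA. The only positive member in the fit without the block, Xetrov90015898m.g, was not called (log2 fold change 0.22, SE 0.89).

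The second comparison in caps of groups outside the rule, 200 against 50 ng of vegt RNA alone, had a positive log2 fold change for 30 of 30 members, with a median of 1.04 against 0.00 over all features. The median was 1.31 for the other Vegt-induced models and 1.45 for the raised ones, so the members' rise was not particular to them. Its SE and p-values also used the spread of all 16 cap libraries, those of the rule among them. Without the block edgeR called 0 members and 0% of features, with 11 members higher and 0 lower at an unadjusted p under 0.05, against 0.917% and 0.257% of features. DESeq2 called 1 member higher and 0 lower, against 0.0122% and 0% of features. With the block 2 members were called higher, which were the only 2 features called, 0.0122% of those tested. Xetrov90009425m.g had 1.23 and 0.78 TPM at 50 ng and 10.4 and 22.5 TPM at 200 ng (log2 fold change 4.05, SE 0.52, adjusted p = 0.0361 with the block in edgeR). Xetrov90000697m.g had 6.80 and 13.2 TPM at 50 ng and 24.6 and 40.5 TPM at 200 ng (1.75, SE 0.22, adjusted p = 0.0303). A ratio of at least 1.5 within both replicates was found in 22 of 30 members (73.3%), against 2.31% of features with a mean of at least 1 TPM, and in 71.6% of the other Vegt-induced models and 66.7% of the raised ones. None (0) was 1.5-fold lower in both, against 1.2% of features. Of the 22, 2 had a mean under 1 TPM at 50 ng and passed through their level at 200 ng. By the ratio of the highest mean TPM at 50, 100 or 200 ng to the mean at 500 ng, the highest members were Xetrov90018905m.g, with 15.1 and 23.7 TPM at 200 ng and 19.3 and 22.5 TPM at 500 ng, and Xetrov90008950m.g, with 200 and 155 TPM at 200 ng and 220 and 189 TPM at 500 ng.

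**Figure D2:**
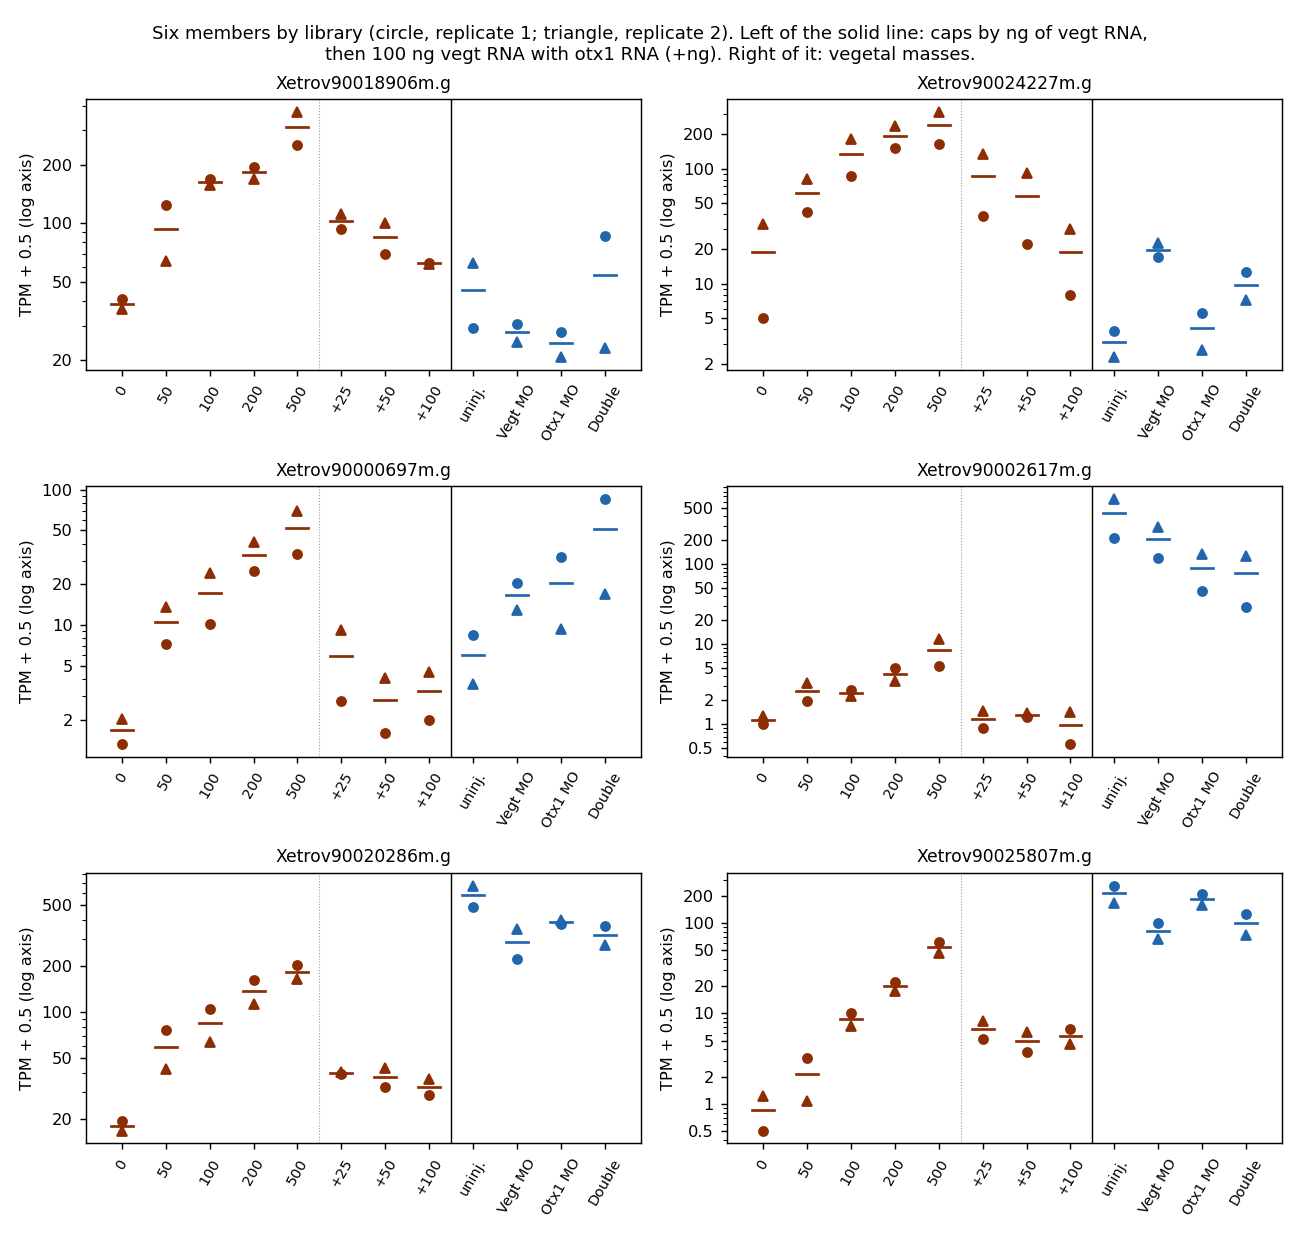
TPM + 0.5 on a log axis for 6 members in each cap and vegetal mass library, with circles for replicate 1, triangles for replicate 2 and bars for their mean. Caps run from 0 to 500 ng of vegt RNA alone and then through 25, 50 and 100 ng of otx1 RNA with 100 ng of vegt RNA; in Xetrov90024227m.g the masses lie far below the 500 ng caps, and in Xetrov90002617m.g far above them. The tables of caps and masses were normalised separately.

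No library of vegetal masses, the prospective endoderm, entered the rule. The members differed widely in level there. In uninjected masses 9 members had a higher mean TPM than in caps at 500 ng of vegt RNA, while 14 were below a ratio of 0.25 to those caps, on TPM + 0.5. Members were chosen for being high in the 500 ng caps, so low ratios to them are partly built in. The same counts were not made for the other Vegt-induced models. The 2 tables were normalised separately, so these levels were not tested against each other. At the high end Xetrov90002617m.g had 212 and 652 TPM in uninjected masses, against 4.88 and 11.1 TPM at 500 ng in caps. At the low end Xetrov90024227m.g had 3.37 and 1.78 TPM in uninjected masses, against 163 and 312 TPM at 500 ng in caps.

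With Vegt MO, members went in both directions. Of 28 members with a mean of at least 1 TPM in the libraries compared, 9 were at least 1.5-fold higher than uninjected masses within both replicates (32.1%, against 3.76% of features with that mean) and 7 were at least 1.5-fold lower in both (25%, against 4.31%). Of the 9, 1 had a mean under 1 TPM in uninjected masses and passed only through its level in Vegt MO. Among the other Vegt-induced models 10.9% were higher and 22.8% lower by this rule, and among the raised models 9.72% and 23.6%; the difference between these classes was not tested. The 9 higher members had low levels in uninjected masses, with medians of 3.64 and 3.18 TPM in replicates 1 and 2, and 8 of them were below a ratio of 0.25 to the 500 ng caps. The 7 lower members had medians of 212 and 165 TPM, and 6 of them were higher in uninjected masses than in the 500 ng caps. Level and change share the uninjected libraries here, so they are not independent of each other.

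**Figure D3:**
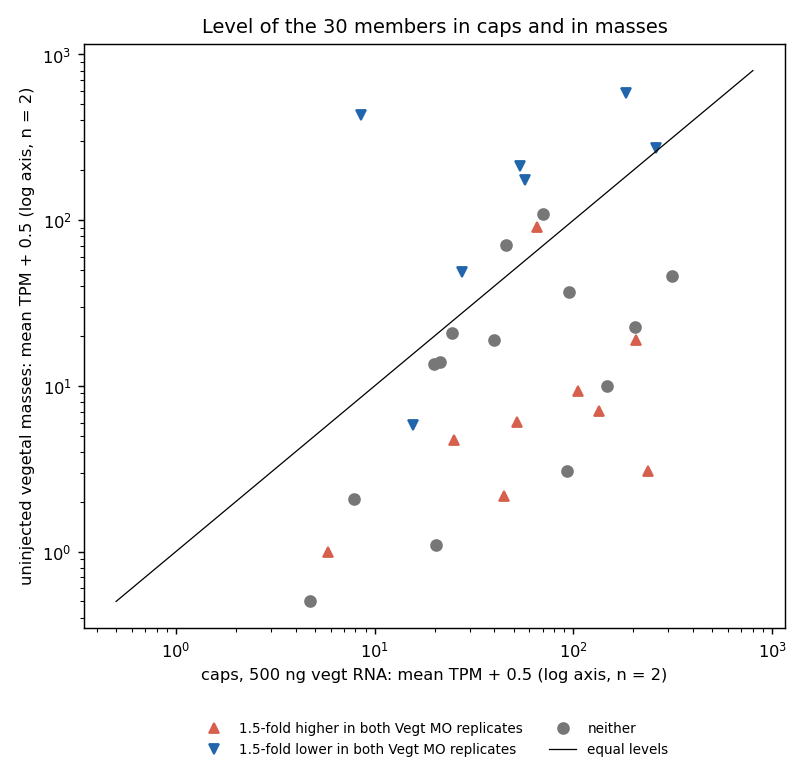
Mean TPM + 0.5 of each of the 30 members in caps with 500 ng of vegt RNA (x, log axis) and in uninjected vegetal masses (y, log axis), n = 2 each, with a line of equal levels. The 9 members that were 1.5-fold higher in both Vegt MO replicates (upward triangles) lie below the line except 1, and the 7 that were 1.5-fold lower (downward triangles) lie above it except 1; circles are the other 14. The y axis and the Vegt MO ratio use the same uninjected libraries.

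The filter on low counts left 28 of 30 members in the tests of the masses, a number that includes members kept by their level in 1 group. Without the block edgeR called 0 of them in Vegt MO, where 0% of features were called higher and 0.0123% lower; 3 were higher and 6 lower at an unadjusted p under 0.05, against 2.47% and 2.91% of features. With the block 3 were called higher and 2 lower, against 1.07% and 1.56% of features. By the same fit 9 of 100 other Vegt-induced models tested were called higher and 12 lower, and of 71 raised models 2 and 6. DESeq2 without the block called 1 member higher and 2 lower, against 0.609% of features in each direction. Xetrov90024227m.g rose from 3.37 and 1.78 TPM to 16.6 and 22.0 TPM (log2 fold change 2.97, SE 0.43, blocked edgeR adjusted p = 0.00961, unblocked 0.274), and both Vegt MO libraries lay above both uninjected ones. Xetrov90025580m.g rose from 7.23 and 1.21 TPM to 14.4 and 6.00 TPM (1.45, SE 0.30, adjusted p = 0.0379 and 1.00), where replicate 2 of Vegt MO did not reach replicate 1 of the uninjected masses. Xetrov90025807m.g fell from 259 and 165 TPM to 98.7 and 65.2 TPM (-1.40, SE 0.15, adjusted p = 0.00179 and 0.391), with no overlap. Xetrov90002617m.g fell from 212 and 652 TPM to 117 and 290 TPM (-1.05, SE 0.18, adjusted p = 0.0175 and 1.00), and the groups overlapped although both replicates were lower within their number. Without uninjected replicate 2 its log2 fold change, fitted without the block, was 0.0425, with no fall left. That fit set uninjected replicate 1 against both Vegt MO replicates and so did not keep the pairing. Within replicates the log2 ratios of this member were -0.86 and -1.17.

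The next comparison asked how members that otx1 RNA lowered in caps behaved with Otx1 MO in masses. Of 29 members with a mean of at least 1 TPM, 8 were at least 1.5-fold lower within both replicates and 4 at least 1.5-fold higher, against 3.33% and 4.7% of features. Of the raised models 31.9% were lower and 13.9% higher by this rule, and of the other Vegt-induced models 15.8% and 4.95%; the members' 27.6% lower lay between these classes, and no difference between them was tested. Of the 4 higher members 2, and of the 8 lower members 1, had a mean under 1 TPM in the group where they were low and passed only through the other group. The median log2 fold change of the 28 tested members was -1.04, with 20 negative, against -0.03 for all features tested. For the raised models it was -0.68 and for the other Vegt-induced models -0.38. The members' median was -0.24 without uninjected replicate 2, and within replicates the median over all 30 was -0.23 and -0.65. Within replicates 1 and 2 the raised models had medians of -0.31 and -0.58, close to the members. The other Vegt-induced models had -0.04 and -0.25. Without the block edgeR called 0 members and 0% of features in either direction, with 4 members lower and 0 higher at an unadjusted p under 0.05, against 2.76% and 2.32% of features. With the block 1 was called lower and 0 higher, against 0.947% and 0.725% of features, and DESeq2 without the block called 2 lower and 0 higher, against 0.295% and 0.154%. The called member was Xetrov90002617m.g, which fell to 45.0 and 132 TPM (log2 fold change -2.39, SE 0.19, blocked edgeR adjusted p = 0.00113, unblocked 0.931), below both uninjected libraries. The member with the lowest p among those that were higher, Xetrov90000697m.g, had 7.93 and 3.18 TPM in uninjected masses and 31.4 and 8.82 TPM in Otx1 MO and was not called (1.66, SE 0.43, adjusted p = 0.110 with the block in edgeR).

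With both morpholinos 10 of 28 members with a mean of at least 1 TPM were at least 1.5-fold lower in both replicates and 3 at least 1.5-fold higher, against 5.21% and 7.15% of features. The share of lower members, 35.7%, was close to the 36.1% of raised and 37% of other Vegt-induced models. Replicates differed: the median log2 ratio over all 30 members was -0.01 in replicate 1 and -1.34 in replicate 2. Without the block edgeR called 0 members, against 0.00615% of features called higher and 0.0553% lower, with 2 members higher and 8 lower at an unadjusted p under 0.05, against 3.7% and 5.12% of features. With the block 2 members were called higher and 5 lower, against 2.93% and 4.06% of features, and DESeq2 without the block called 1 and 4, against 0.578% and 1.3%. Xetrov90000697m.g rose to 85.4 and 16.5 TPM (log2 fold change 2.89, SE 0.43, blocked edgeR adjusted p = 0.0145, unblocked 0.445), above both uninjected libraries. This member was also called lower with otx1 RNA in caps, with the block. Xetrov90025580m.g also rose, to 22.1 and 9.03 TPM (1.97, SE 0.30, adjusted p = 0.00703 and 0.634). Among the 5 that fell, Xetrov90002617m.g reached 28.9 and 124 TPM (-2.73, SE 0.19, adjusted p = 2.00e-04 and 0.540), and Xetrov90019318m.g went from 16.4 and 20.5 TPM to 1.64 and 6.19 TPM (-2.45, SE 0.39, adjusted p = 0.00863 and 0.448). The comparisons of each morpholino with uninjected masses all use the 2 uninjected libraries, and their directions are therefore not independent.

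**Figure D4:**
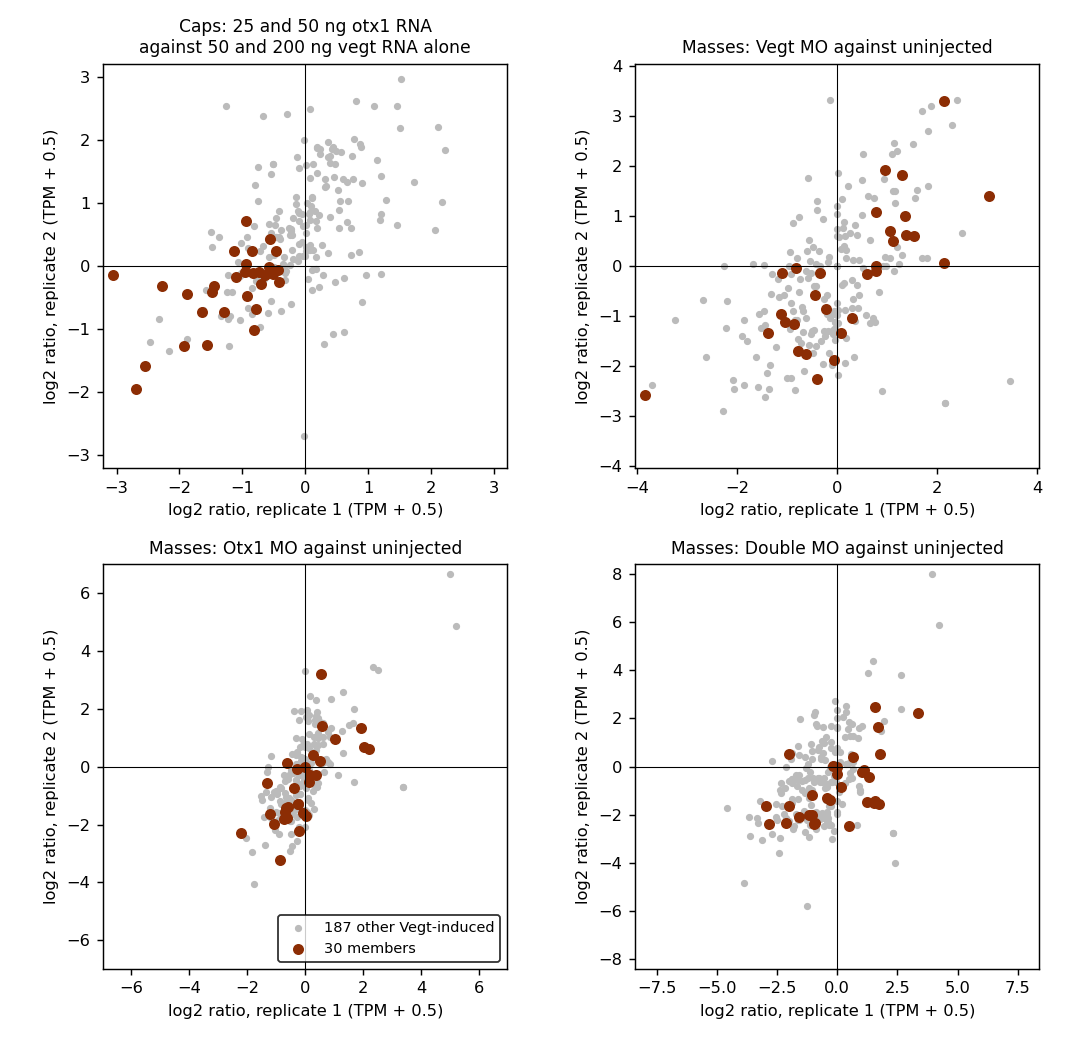
Log2 ratios of TPM + 0.5 within replicate 1 (x) and replicate 2 (y) for the 30 members (dark) and the 187 other Vegt-induced models (grey), in the caps comparison that shares no library with the rule and in 3 morpholino comparisons. In the caps all 30 members are left of 0 and 24 are below 0; with Vegt MO members lie both at upper right and at lower left.

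Double MO against Vegt MO compares masses with and without Otx1 MO where Vegt MO was also given, without the uninjected libraries. No group had a control morpholino, and the fall in Otx1 protein is not known from these RNA values. Of 29 members with a mean of at least 1 TPM, 7 were at least 1.5-fold lower in both replicates and 1 at least 1.5-fold higher, against 4.76% and 8.13% of features. Lower by this rule were 24.1% of members, 33.3% of raised and 34.3% of other Vegt-induced models. The median over all 30 members was -0.05 in replicate 1 and -0.57 in replicate 2. Without the block edgeR called 0 members and 0% of features in either direction, with 5 members lower and 1 higher at an unadjusted p under 0.05, against 3.42% and 2.65% of features. With the block 5 members were called lower and 0 higher, against 2.04% and 2.07% of features, and DESeq2 without the block called 1 lower and 0 higher, against 0.553% and 0.24%. Xetrov90022311m.g fell from 20.7 and 24.3 TPM to 4.2 and 6.0 TPM (log2 fold change -2.24, SE 0.31, blocked edgeR adjusted p = 0.0128, unblocked 0.498), with no overlap. Xetrov90019318m.g fell from 11.9 and 13.4 TPM to 1.64 and 6.19 TPM (-1.88, SE 0.39, adjusted p = 0.0356 and 0.812), also with no overlap. A test, added after the data were seen, of whether the Otx1 MO effect differed with and without Vegt MO called 0 of 28 members and 0 of 16269 features with or without the block in edgeR; at an unadjusted p under 0.05 were 0 members without it and 6 with it, against 0.965% and 4.24% of features.

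At the 8-cell stage, when the embryo has only maternal RNA, most members held little or no RNA, as did most other Vegt-induced models. Of the 30, 17 had a mean under 0.1 TPM over the 9 libraries (56.7%, against 51.3% of the other 187 Vegt-induced models), 3 were at 0 in all 9, and 8 had a mean of at least 1 TPM. The counts at 0 and at 1 TPM were not made for other models, nor the share under 0.1 TPM over all gene models. The filter left 9 members in the test of vegetal against animal blastomeres. Of these, edgeR called 1 higher in vegetal blastomeres and 0 lower, with or without the block, against 0.444% and 0.0222% of features without it and 0.955% and 0.378% with it. That member, Xetrov90020286m.g, had 305, 360 and 274 TPM in vegetal blastomeres and 9.49, 15.5 and 0.71 TPM in animal blastomeres (log2 fold change 5.20, SE 0.84, edgeR adjusted p = 0.0273; 5.51, SE 0.77 and 0.0202 with the block). All 3 vegetal libraries lay far above the animal ones, and whole embryos were between them at 157, 149 and 113 TPM. Of 8 members with a mean of at least 1 TPM, 1 was at least 1.5-fold higher within every replicate and 0 at least 1.5-fold lower, against 1.68% and 1.43% of features. Without the filter on low counts the edgeR adjusted p of Xetrov90020286m.g was 0.335, and it was above 0.05 without any 1 of animal replicates 1 and 2 or of the vegetal replicates. The member with the lowest p in the other direction, Xetrov90022311m.g, was not called (-2.73, SE 1.42, adjusted p = 1.00 without the block).

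Xetrov90020286m.g was thus maternal and vegetal, and it was also among the most abundant members in masses, at 489 and 674 TPM in uninjected ones. With Vegt MO it had 223 and 348 TPM, with Otx1 MO 378 and 402 TPM and with both 368 and 273 TPM, all below both uninjected libraries. Its neighbour in number, Xetrov90020285m.g, overlapped between the blastomeres at the 8-cell stage, with 10.2, 10.9 and 7.51 TPM in vegetal and 4.52, 11.0 and 6.03 TPM in animal blastomeres. In masses it had 186 and 360 TPM without injection, 90.1 and 165 TPM with Vegt MO and 114 and 120 TPM with Otx1 MO. In all, 8 of the 30 members had an identifier number within 5 of another member's. This was not counted for the other Vegt-induced models, which also hold neighbours in number, such as Xetrov90028554m.g and Xetrov90028555m.g among the raised ones. What the numbering stands for is not given in the sources used here, and for single models it is not known how RSEM shared reads among copies of nearly the same sequence.

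The members' profiles over all cap libraries are a description, since 8 of the 16 libraries chose them. Over the 16 libraries each member's log2(TPM + 0.5) correlated with the mean of the others at r between 0.80 and 0.98, with a median of 0.90, where libraries also share replicate effects. The models outside the group with the most similar profile, among 12823 models with a mean of at least 1 TPM, were Xetrov90001825m.g (r = 0.94) and Xetrov90011318m.g (r = 0.92). Xetrov90001825m.g had 33.2 and 36.4 TPM in uninjected caps, 98.8 and 131 TPM at 500 ng of vegt RNA, 68.6 and 99.4 TPM at 100 ng and 30.4 and 57.5 TPM with 100 ng of otx1 RNA. It was lower with otx1 RNA in both replicates and missed the limit for induction in replicate 1.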

How the data were processed

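Total RNA was made into Smart-seq2 libraries, per the labels' protocols. The authors deposited expected counts (estimated read counts) and TPM per feature for 33 RNA libraries; RSEM 1.2.12 and Bowtie2 2.2.7 are named in the submitters' processing notes, with no genome build given in the sources used here. Peak lists were left out, since nothing places the gene models on their chromosomes.

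Members were found on the deposited TPM with a pseudocount of 0.5; ratios were rounded to 10 decimals before they were set against a limit. Expected counts were rounded and tested with edgeR 4.0.16 in R 4.3.3 (quasi-likelihood, robust, TMM, filterByExpr, 1 group-means model per table), with Benjamini-Hochberg adjustment over 16360, 16269 and 13503 features in caps, masses and 8-cell samples. The SE printed with edgeR results is the absolute log2 fold change divided by the square root of the test's F statistic. Without the block, the p-values measure the spread between the labelled duplicates or triplicates. With the block, differences shared by libraries of the same replicate number are taken out, and the p-values measure the spread that is left. Same-numbered libraries' deviations from group means correlated at r of 0.67 to 0.89 in caps, 0.71 to 0.82 in masses and 0.43 to 0.68 at the 8-cell stage, over features; the numbers were taken to pair the libraries. Alternatives were a replicate block, DESeq2 1.42.0, limma 3.58.1 on log2(TPM + 0.5), RLE scaling, no filter and leaving out each library. The edgeR fit without the block was tested on simulated counts that held no replicate effect. The blocked fit, DESeq2 and limma were not tested in this way. Totals per library were 8289954 to 18201303 in caps, 10906279 to 16379814 in masses and 9005402 to 17210721 at the 8-cell stage, and 0 library pairs were identical.

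The members and the tests were chosen with earlier results of these data known. Named members were those with the highest level at 100 ng of vegt RNA, the lowest otx1 ratio, those nearest the limit, those with the highest mean below 500 ng relative to that at 500 ng, at most 2 called per direction and comparison (from the blocked fit where the other called none) and, where none was called, the one with the lowest p. Other identifiers were chosen after their values were seen.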

Additional observations from a re-analysis of the deposited data

How the results depend on the processing

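The number of members was 30 and became 14 with an otx1 limit of 0.5; with 1 replicate deciding the ratios it was 60 to 75. Without the block edgeR called 0 members in caps or masses, so the edgeR calls there rest on the replicate block. With the block edgeR called 2 members lower for low otx1 RNA, 2 higher for 200 against 50 ng of vegt RNA, 3 higher and 2 lower in Vegt MO, 1 lower in Otx1 MO, 2 higher and 5 lower in Double MO, and 5 lower in Double MO against Vegt MO. DESeq2, which had no block, called 1, 1, 1 and 2, 2, 1 and 4, and 1 in the same order. At the 8-cell stage the 1 call became 0 without the filter and 0 to 1 without 1 library.

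Median log2 fold changes of the members without 1 library ranged from -0.86 to -0.37 for low otx1 RNA, 1.02 to 1.19 for 200 against 50 ng, -0.81 to 0.39 in Vegt MO, -1.26 to -0.24 in Otx1 MO, -1.09 to -0.12 in Double MO and -0.81 to -0.18 in Double MO against Vegt MO. The Vegt MO median was thus positive without uninjected replicate 2 (0.39). Xetrov90002617m.g was then at 0.0425 in Vegt MO, the highest of its values without 1 library, the lowest being -2.04. These fits had no block, so leaving out a library broke the pairing by replicate number. With the pairing kept, the Vegt MO median over all 30 members was 0.19 in replicate 1 and -0.15 in replicate 2. The cause of these shifts was not tested. For 200 against 50 ng the median was 1.19 with the block and 1.14 by limma. With 2 libraries a group and estimated counts, members at a few TPM have the least precise values.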

Other observations

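The rule for the members took gene models only. Of 5684 long non-coding RNA models in the same table, 51 met the limits for Vegt induction and 6 of these also met the limit for lowering by otx1 RNA.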
